A study of Schizosaccharomyces pombe with 4 samples.

Results

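In Schizosaccharomyces pombe, intervals occupied by RNA polymerase II phosphorylated at serine 5 (Ser5P) were chosen by their width alone, and taken as wide where the deposited end minus the deposited start was at least 300 bp. The rule found 194 wide intervals among 2851 in abp1Δ cells (6.80%, 95% Wilson interval 5.94 to 7.79) and 175 among 3242 in wild-type cells (5.40%, 4.67 to 6.23), 369 of 6093 in all. Because width was the value that selected them, widths and whatever follows from width are given as a description. The abp1Δ strain carries a deletion of abp1, whose product is the fission yeast counterpart of CENP-B, a DNA-binding protein of human centromeres, and the comparison strain is wild type; no other allele is given in the labels. Both were growing exponentially in YES, a rich medium, and were fixed with 1% formaldehyde for 15 min. The series title places the study's question in the repression of transcription from Tf2 retrotransposons and the rRNA gene repeats by this protein. Each genotype has an input and a Ser5P ChIP sample. Each ChIP has 1 interval list, and the inputs were not analysed here.

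Serine 5 of the polymerase's C-terminal repeats is phosphorylated by the kinase of TFIIH as transcription starts. The mark helps recruit the capping enzyme, and it is carried into the first part of the gene before serine 2 phosphorylation takes over. Where a gene is short or transcribed very actively, Ser5P polymerase can be found over much of its length. Very active genes of growing yeast include those for ribosomal proteins, translation factors, glycolytic enzymes and the plasma membrane proton pump.

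Neither genotype has a replicate list, so no p-value was computed and each difference below describes these 2 lists. Read depth is unknown. The score in the fourth column is the authors' own, its unit is not stated, and no interval in either list scores below 200. The values look like those of unbroken runs of bases at or above that level, whose relation to depth is unknown. Width would then depend on depth and scaling, and a dip below the level would split an interval. Less polymerase per cell and fewer cells carrying it cannot be told apart. No interval of either list met the deleted gene, SPBC1105.04c, annotated as cbp1, so the lists give no check of the deletion. None of the 13 annotated Tf2 elements met a wide interval in either list: 2 of them, Tf2-10 and Tf2-11, carried 65 and 68 intervals in abp1Δ cells, the widest of 179 and 180 bp, and no Tf2 element carried an interval in wild-type cells.

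Sequences that show copied genes, the promoters of the gene lists described below and short RNA genes under wide intervals are given first, from the RefSeq assembly ASM294v3, 5′ to 3′ on the strand of the gene. The elongation factor 2 genes eft201 and eft202 are near-identical copies on chromosomes I and III, and their widest wild-type intervals start at almost the same base. In the 60 bases around that edge, shown to compare the copies, capitals mark bases inside the wild-type interval.
eft201 (chrI:2910033-2910092, minus strand): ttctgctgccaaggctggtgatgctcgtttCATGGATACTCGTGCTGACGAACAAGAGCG
eft202 (chrIII:537464-537523, plus strand): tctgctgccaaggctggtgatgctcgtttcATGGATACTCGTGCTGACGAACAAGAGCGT

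A set of 4 neighbouring wild-type intervals of 568 bp, each inside 1 coding exon and without an abp1Δ counterpart, have one and the same sequence. They lie on chromosome II in a row of genes whose systematic names run from SPBPB10D8.04c to SPBPB10D8.07c. The first 90 bases are shown once because the other copies match them base for base.
SPBPB10D8.04c (chrII:92541-92630, minus strand): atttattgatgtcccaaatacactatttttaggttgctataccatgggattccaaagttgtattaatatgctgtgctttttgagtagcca

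Ribosomal protein genes, the largest protein-coding list used here with 137 members, gave more genes under wide intervals than any other list. By share (40.9% in abp1Δ cells and 37.2% in wild-type cells) every other protein-coding list except the chaperones stood higher. Many ribosomal protein genes carry HomolD and HomolE boxes, promoter elements of this gene class in fission yeast. The 120 bases before the annotated gene start are shown for 5 such genes, with capitals on HomolD (CAGTCACA or its reverse complement) and HomolE (ACCCT written 2 times in a row, or its reverse complement). rpl29 also met wide intervals in both lists and has neither run of letters in this window.
rpl1802 (chrI:1285496-1285615, plus strand): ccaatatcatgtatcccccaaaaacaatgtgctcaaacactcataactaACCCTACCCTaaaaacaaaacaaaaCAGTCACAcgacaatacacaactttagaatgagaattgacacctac
rpl1202 (chrIII:627824-627943, minus strand): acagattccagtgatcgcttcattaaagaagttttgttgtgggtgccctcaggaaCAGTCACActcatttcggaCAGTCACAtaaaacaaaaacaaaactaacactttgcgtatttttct
rpl101 (chrIII:612580-612699, minus strand): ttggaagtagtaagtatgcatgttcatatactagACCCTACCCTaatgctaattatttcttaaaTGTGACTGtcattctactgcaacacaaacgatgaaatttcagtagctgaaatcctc
rps2 (chrIII:2096037-2096156, minus strand): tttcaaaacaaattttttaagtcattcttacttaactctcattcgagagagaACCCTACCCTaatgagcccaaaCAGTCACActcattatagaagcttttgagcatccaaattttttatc
rpl29 (chrII:3172193-3172312, plus strand): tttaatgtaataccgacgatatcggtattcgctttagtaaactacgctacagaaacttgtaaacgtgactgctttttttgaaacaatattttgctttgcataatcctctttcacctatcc

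The glycolytic and fermentation genes tdh1, pgk1 and adh1, each under a wide interval in both lists, carry a TATAAA motif, capitalised here within the 100 bases before the gene start. The aldolase gene fba1, wholly inside wide intervals in both lists, is shown beside them and has none in that window, as was the case for pma1 and tef101.
tdh1 (chrII:2807495-2807594, plus strand): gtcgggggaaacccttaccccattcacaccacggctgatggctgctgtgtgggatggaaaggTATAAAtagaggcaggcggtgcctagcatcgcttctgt
pgk1 (chrII:4159462-4159561, minus strand): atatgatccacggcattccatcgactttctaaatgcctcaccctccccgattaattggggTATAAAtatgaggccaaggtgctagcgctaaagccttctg
adh1 (chrIII:1591192-1591291, plus strand): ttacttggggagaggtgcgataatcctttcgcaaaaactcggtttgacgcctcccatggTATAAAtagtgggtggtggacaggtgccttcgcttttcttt
fba1 (chrII:1688221-1688320, plus strand): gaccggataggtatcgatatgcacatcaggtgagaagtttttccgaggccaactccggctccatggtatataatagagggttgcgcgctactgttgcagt

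Of the histone genes shown next, hht1 and hht3 met wide intervals in wild-type cells alone, and hta2 and hta1 met them in both lists. The AACCCT box found in fission yeast histone promoters, or its reverse complement, is in capitals within the 160 bases before the gene start of hta2, hht1, hht3 and hta1. The hht1 box belongs to a promoter shared with the divergent gene hhf1.
hta2 (chrI:4053319-4053478, minus strand): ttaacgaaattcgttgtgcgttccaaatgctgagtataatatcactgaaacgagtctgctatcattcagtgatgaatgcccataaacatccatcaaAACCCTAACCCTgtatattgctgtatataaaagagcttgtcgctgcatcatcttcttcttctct
hht1 (chrI:4699572-4699731, plus strand): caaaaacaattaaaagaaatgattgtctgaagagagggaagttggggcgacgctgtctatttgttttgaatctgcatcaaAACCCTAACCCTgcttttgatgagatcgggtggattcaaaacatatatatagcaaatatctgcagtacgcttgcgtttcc
hht3 (chrII:3529566-3529725, minus strand): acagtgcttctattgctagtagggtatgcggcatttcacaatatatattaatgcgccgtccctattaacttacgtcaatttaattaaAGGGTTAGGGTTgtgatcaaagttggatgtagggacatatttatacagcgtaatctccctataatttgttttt
hta1 (chrIII:1412182-1412341, minus strand): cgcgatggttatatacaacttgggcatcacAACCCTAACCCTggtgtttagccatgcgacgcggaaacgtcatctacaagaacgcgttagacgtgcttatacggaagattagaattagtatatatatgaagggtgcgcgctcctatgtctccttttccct

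The spliceosomal RNA genes snu2 (U2) and snu5 (U5) lay wholly inside wide intervals in both lists, although each is far shorter than its interval, and their whole sequences are shown for scale.
snu2 (chrI:959370-959556, minus strand): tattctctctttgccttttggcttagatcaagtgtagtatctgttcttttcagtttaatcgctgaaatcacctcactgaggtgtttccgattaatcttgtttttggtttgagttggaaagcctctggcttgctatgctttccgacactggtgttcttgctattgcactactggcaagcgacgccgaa
snu5 (chrII:3236867-3236986, plus strand): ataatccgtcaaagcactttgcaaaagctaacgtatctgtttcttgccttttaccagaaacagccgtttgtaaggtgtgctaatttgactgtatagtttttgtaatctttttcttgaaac

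Wide intervals were longer at the median in abp1Δ cells. Widths ran from 306 to 4572 bp in abp1Δ cells with a median of 783 bp, and from 300 to 4996 bp in wild-type cells with a median of 684 bp. In abp1Δ cells 73 intervals reached 1000 bp and 22 reached 2000 bp, against 56 and 13 in wild-type cells. They made up a small share of each list by number but most of its covered length: 200151 of 249934 bp (80.1%) in abp1Δ cells and 164714 of 227413 bp (72.4%) in wild-type cells. That is 1.59% of the chromosomes in abp1Δ cells and 1.31% in wild-type cells. By chromosome, abp1Δ cells had 95 wide intervals on I, 60 on II and 39 on III, against 81, 63 and 31 in wild-type cells. Chromosome II thus held fewer in abp1Δ cells, while its wide length was 58683 bp in abp1Δ cells against 52017 bp in wild-type cells. On chromosome III the wide length was 42936 bp in abp1Δ cells and 28875 bp in wild-type cells.

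Wider intervals tended to score higher. The median score over wide intervals was 507 in abp1Δ cells (276 to 4092) and 491 in wild-type cells (266 to 2503). The narrower intervals had a median score of 206 in both lists, over 2657 intervals in abp1Δ cells and 3067 in wild-type cells, and their highest scores were 1045 and 1055. Across wide intervals the Spearman correlation of width with score was 0.682 in abp1Δ cells (194 intervals) and 0.687 in wild-type cells (175 intervals); all points of a list share 1 library. Another interval of the same list, of any width, lay within 100 bp of 179 of 194 wide intervals (92.3%) in abp1Δ cells and 160 of 175 (91.4%) in wild-type cells. The share over all intervals was not computed, so this is not shown to be particular to wide ones.

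**Figure D1:**
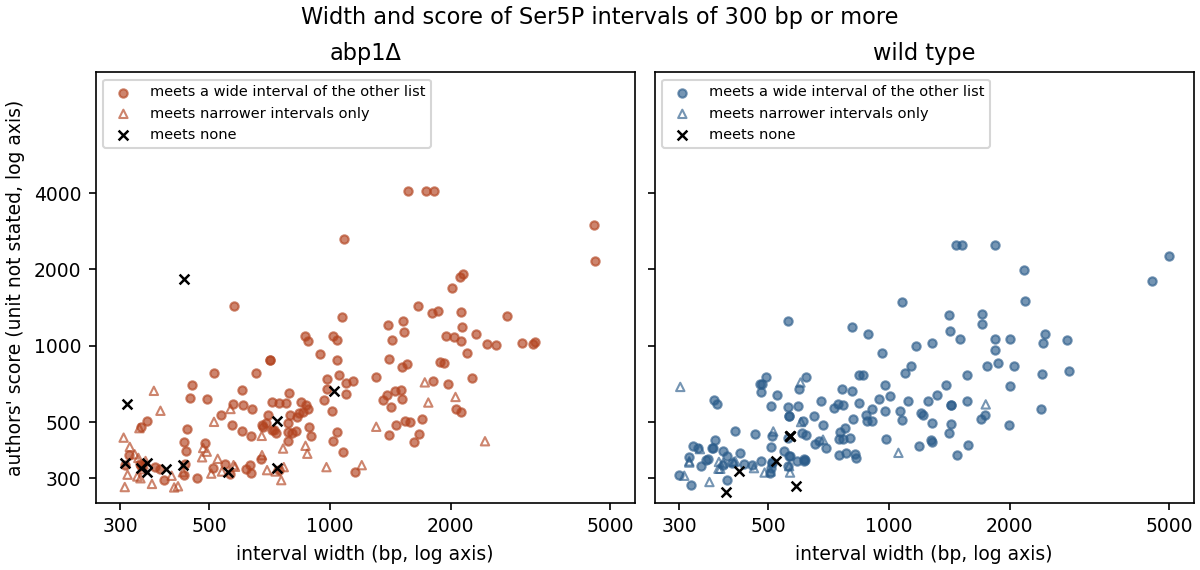
Width in bp against the authors' score for each wide interval, on log axes, with abp1Δ on the left and wild type on the right. Filled circles meet a wide interval of the other list, open triangles meet narrower ones alone and crosses meet none. Medians are 783 bp and score 507 in abp1Δ cells, and 684 bp and score 491 in wild-type cells.

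Around the limit of 300 bp the values ran on without a gap. In abp1Δ cells the narrowest wide intervals lay in rpl1901 (306 bp, score 434), ice2 (308 bp, score 339) and snz1 (308 bp, score 277). The ice2 interval also covered 269 bp of the ribosomal protein gene rps23. Just below the limit in abp1Δ cells were toa2 (299 bp, score 284), rpp0 (297 bp, score 304) and asn1 (287 bp, score 298). In wild-type cells mae2 (300 bp, score 310), hhf2 (302 bp, score 688) and btf3 (309 bp, score 307) lay just inside. Just outside in wild-type cells were rps601 (297 bp, score 378), rlc1 (294 bp, score 423) and csx1 (291 bp, score 339).

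The widest intervals lay over the same few genes in both lists. The interval over pma1, the plasma membrane proton pump, measured 4572 bp in abp1Δ cells and 4526 bp in wild-type cells, with scores of 2168 and 1807. Over pfl2, which encodes a cell surface glycoprotein, it measured 4554 bp in abp1Δ cells and 4996 bp in wild-type cells, with scores of 2995 and 2250. The intervals over met26, the homocysteine methyltransferase of methionine synthesis, were 2759 bp in abp1Δ cells and 2785 bp in wild-type cells. The chaperone gene hsp90 had 2597 bp in abp1Δ cells and 2456 bp in wild-type cells, and but2 had 3014 and 2814 bp. Other genes among the 10 widest belonged to that rank in 1 list: in abp1Δ cells eft202 (3200 bp), eft201 (2458 bp), plb2 (2434 bp) and fhn1 (2313 bp), and in wild-type cells atd1 (2426 bp), bip1 (2387 bp), ssa2 (2185 bp) and SPAC27E2.11c (2167 bp). The elongation factor 3 gene tef3 had 3250 bp in abp1Δ cells and 2412 bp in wild-type cells.

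The highest scores belonged to the 3 genes for elongation factor 1 alpha, which carries aminoacyl-tRNA to the ribosome. tef101, tef102 and tef103 each scored 4092 in abp1Δ cells and 2503 in wild-type cells. The copies share most of their sequence, with 65.6% to 75.1% of their 50-base words repeated in the genome, so their equal scores cannot be assigned to single copies. The polyubiquitin gene ubi4, itself built of repeats, scored 2642 in abp1Δ cells and 1486 in wild-type cells over 1081 and 1075 bp. Of the wide intervals, 26 in abp1Δ cells and 33 in wild-type cells had at least 10% of their 50-base words repeated. At the low end were tkt1 (score 276) and snz1 (score 277) in abp1Δ cells, and mid2 (score 266) and ecl2 (score 280) in wild-type cells.

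Nearly all wide intervals met a protein-coding gene: 184 of 194 in abp1Δ cells (94.8%, 90.8 to 97.2) and 169 of 175 in wild-type cells (96.6%). The same share over all intervals was not computed, so it is not shown to be a trait of wide ones. After moving the lists by 1000 bp, 64.7% to 70.8% of wide bases still lay in coding genes. Wide intervals are counted as meeting a gene from 1 bp of overlap. They met 206 of the 5113 annotated protein-coding genes in abp1Δ cells (4.03%) and 183 in wild-type cells (3.58%), and 151 genes (2.95%) in both. Those 151 genes were 73.3% of the abp1Δ set and 82.5% of the wild-type set. Another 55 genes met a wide interval in abp1Δ cells alone, and 46 of these carried narrower intervals in wild-type cells. In wild-type cells alone there were 32, of which 26 carried narrower intervals in abp1Δ cells. An interval met 2 coding genes in 28 cases in abp1Δ cells and 22 in wild-type cells, on opposite strands in 25 and 18 of them, and a ribosomal protein gene was involved in 15 and 14. The annotations of the 2 genes themselves overlap in 21 of these cases in abp1Δ cells and 17 in wild-type cells. ChIP reads carry no strand, so the polymerase in such an interval cannot be assigned to either gene.

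Ribosomal protein genes, for the small (rps) and large (rpl) subunits of the cytosolic ribosome, met wide intervals in 56 of 137 cases in abp1Δ cells (40.9%) and 51 in wild-type cells (37.2%), and 43 did so in both. A further 13 met one in abp1Δ cells alone and 8 in wild-type cells alone. The median covered share of such a gene was 60.2% in abp1Δ cells and 56.8% in wild-type cells. No ribosomal protein gene lay wholly inside a wide interval in either list. Over rps2 the wide intervals took 837 of 902 bp in abp1Δ cells and 700 bp in wild-type cells. The near-identical pair rpl301 and rpl302 scored 1093 each in abp1Δ cells and 768 each in wild-type cells. Over rps3 they took 873 bp in abp1Δ cells and 776 bp in wild-type cells, and over rpp0, the scaffold of the ribosomal stalk, 835 and 767 bp. The gene of large subunit protein uL1, rpl101, had an interval of 1040 bp in abp1Δ cells and 464 bp in wild-type cells.

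Of 18 genes of glycolysis and fermentation, the same 10 met wide intervals in both lists. fba1 (aldolase), tdh1 (glyceraldehyde 3-phosphate dehydrogenase) and pgk1 (phosphoglycerate kinase) lay wholly inside theirs in both. The enolase gene eno101 was covered over all 1457 bp in abp1Δ cells and 1389 bp in wild-type cells. Covered lengths differed little at pyk1, pyruvate kinase, with 1781 bp in abp1Δ cells and 1744 bp in wild-type cells, and at pdc101, pyruvate decarboxylase, with 1556 and 1569 bp. The second enolase gene eno102 and the alcohol dehydrogenase gene adh4 had no interval of any width in either list.

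Among 11 translation factor genes found, 9 met wide intervals in abp1Δ cells and 8 in wild-type cells. In abp1Δ cells 1 interval took 3199 of the 3307 bp of tef3, against 2412 bp in wild-type cells. tef5 met one in abp1Δ cells alone, 525 bp wide within the gene, and its wild-type intervals were all narrower and covered 107 bp. tif51, translation factor eIF5A, had 978 bp in abp1Δ cells and 948 bp in wild-type cells. tif1, the eIF4A helicase, had 1248 bp in abp1Δ cells and 1254 bp in wild-type cells. tif211 had no interval in either list and sui1 had narrow ones alone.

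Histone genes went the other way in number, with 5 of 10 in abp1Δ cells and 8 of 10 in wild-type cells. The 5 include hhf2 in abp1Δ cells by an overlap of 15 bp. The linked H2A and H2B genes hta1 and htb1 had alike covered lengths: 701 bp of hta1 in abp1Δ cells and 731 bp in wild-type cells, and 1235 and 1243 bp of htb1. At hta2, the other H2A gene, wide intervals covered 282 bp of the gene in abp1Δ cells and 740 bp in wild-type cells. The H3 and H4 genes hht1, hhf1 and hht3 met wide intervals in wild-type cells alone, over 604, 556 and 515 bp, while in abp1Δ cells their narrower intervals covered 198, 71 and 404 bp. At hht2 the order was turned, with 698 bp in abp1Δ cells and 606 bp in wild-type cells. These genes hold almost no repeated 50-base words (at most 1.0%).

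Chaperone genes met wide intervals in 6 of 15 cases in abp1Δ cells and 5 in wild-type cells. The 15 include sce3, annotated as a translation initiation factor, which had no interval in either list. The Hsp70 genes ssa2, sks2 and bip1 and the Hsp90 gene were covered over most of their length in both. ssa2 had 2124 bp in abp1Δ cells and 2185 bp in wild-type cells, and bip1, the chaperone of the endoplasmic reticulum, had 2116 and 2387 bp. ssc1, a mitochondrial Hsp70, met one in abp1Δ cells alone, over 403 bp. hsp9, hsp16 and hsp104, genes induced by heat in fission yeast, had no interval in either list.

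Of 17 plasma membrane and cell wall genes, 10 met wide intervals in abp1Δ cells and 9 in wild-type cells. psu1, a cell wall protein gene, lay wholly inside its 2112 bp interval in abp1Δ cells and was covered over 1987 bp in wild-type cells. ecm33, a cell surface glycoprotein gene, had 1891 bp in abp1Δ cells and 1707 bp in wild-type cells, and the glucanosyltransferase gene gas1 had 1905 and 1875 bp. gas2 met one in abp1Δ cells alone (767 bp), where wild-type intervals covered 138 bp. The large glucan synthase genes bgs1 and bgs3 had no interval in either list. pil1, the core protein of eisosomes, membrane furrows of the yeast cortex, is described with the paired intervals.

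**Figure D2:**
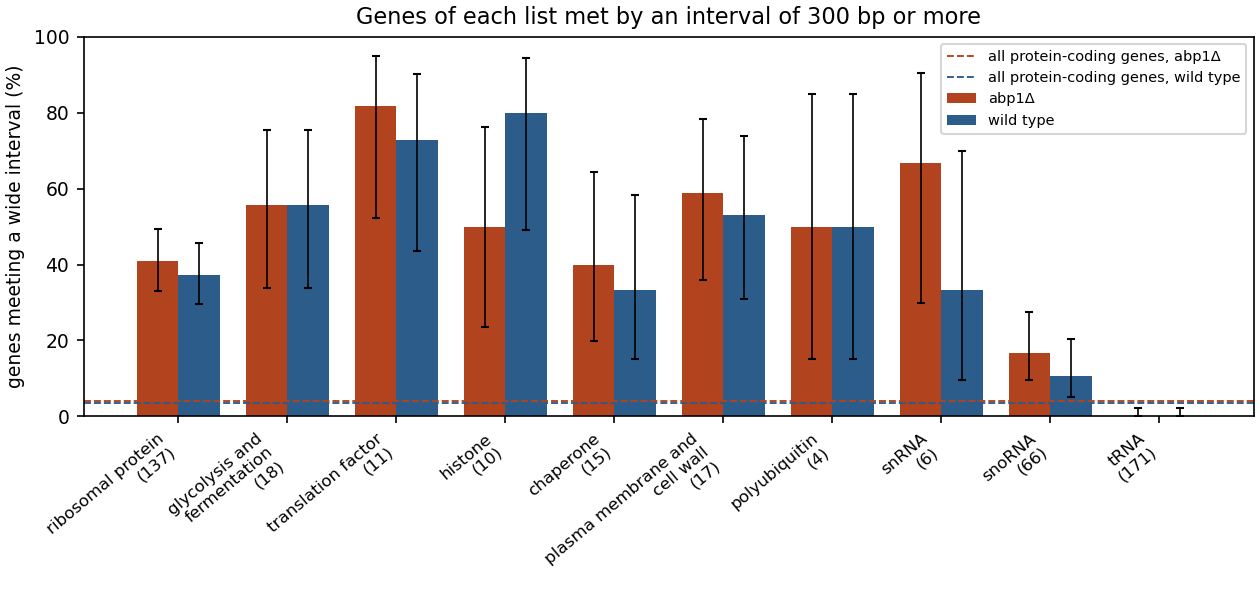
Percent of the genes in each list that met a wide interval, abp1Δ bars left of wild-type bars, with the number of genes found in brackets and 95% Wilson intervals that cover counting error only. Dashed lines give all protein-coding genes (4.03% in abp1Δ and 3.58% in wild type) and are no reference for the snRNA, snoRNA and tRNA lists. Histone genes are the list in which the wild-type bar stands higher (80%) than the abp1Δ bar (50%).

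The genes under wide intervals differed from the gene set as a whole in other ways, most of which genes with narrower intervals alone shared. Genes without an intron were 74.3% of those met in abp1Δ cells and 76.0% in wild-type cells, against 61.4% and 62.5% of genes that met narrower intervals alone and 52.0% of all protein-coding genes. Their GC content at the last position of codons had a median of 42.3% in abp1Δ cells and 41.7% in wild-type cells, against 38.4% and 40.4% for genes with narrower intervals alone and 32.8% over all genes. Gene lengths had medians of 1616 bp in abp1Δ cells and 1460 bp in wild-type cells, against 1290 and 1388 bp for genes with narrower intervals alone and 1773 bp over all genes, so the genes under wide intervals were the longer of these 2 sets in each list. High base composition was not particular to the wide intervals, whose GC content had a median of 43.8% in abp1Δ cells and 42.8% in wild-type cells, against 44.7% and 43.1% for intervals of at least 50 bp that fell short of 300 bp.

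Motifs were searched on both strands in the 250 bases before each annotated gene start. HomolD occurred before 26.2% of the genes met in abp1Δ cells and 28.4% in wild-type cells, against 2.62% of all 5112 promoters searched. Within ribosomal protein genes it did not set those with wide intervals apart: 36 of 56 in abp1Δ cells, 33 of 51 in wild-type cells and 47 of the 73 that met none in either list had it. HomolE stood before 42.9% of the ribosomal protein genes with a wide interval in abp1Δ cells and 41.2% in wild-type cells, against 20.5% of those with none and 1.21% of all promoters. TATAAA occurred before 41.3% of the genes met in abp1Δ cells and 42.1% in wild-type cells, against 44.4% of all. AACCCT, which can overlap HomolE, occurred before 23.8% in abp1Δ cells and 24.6% in wild-type cells, against 8.29% of all. A match is a run of letters and not a shown binding site.

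Along the gene it covered most, a wide interval usually began well inside the gene and ended near its 3′ end. The upstream edge lay at a median of 338 bp inside the annotated start in abp1Δ cells and 286 bp in wild-type cells. The downstream edge lay at a median of -84 bp from the annotated end in abp1Δ cells and -140 bp in wild-type cells, a negative value being inside the gene. Only 15 of 184 intervals reached the gene start in abp1Δ cells (8.15%) and 14 of 169 in wild-type cells (8.28%). The median share of the gene covered was 59.5% in abp1Δ cells and 54.5% in wild-type cells. At least 90% of the gene was covered by 30 intervals in abp1Δ cells and 22 in wild-type cells. Introns wholly inside a wide interval numbered 15 in 11 intervals in abp1Δ cells and 11 in 8 intervals in wild-type cells. Where the bounds of the coding sequence replaced those of the gene, the intervals reaching its start numbered 43 of the 177 that met a coding sequence in abp1Δ cells and 42 of 162 in wild-type cells.

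Wide intervals passed the annotated gene end in 65 of 184 cases in abp1Δ cells (35.3%, 28.8 to 42.5) and 39 of 169 in wild-type cells (23.1%, 17.4 to 30.0). With the coding sequence as bounds they passed its end in 123 of 177 cases in abp1Δ cells (69.5%) and 103 of 162 in wild-type cells (63.6%). The median reach past the gene end, where there was one, was 109 bp in abp1Δ cells and 124 bp in wild-type cells. It exceeded 250 bp in 14 intervals in abp1Δ cells and 9 in wild-type cells, and 500 bp in 5 and 4. These counts include intervals that lie mostly outside the coding gene and meet an RNA gene, as given below. Intervals wholly inside the gene were 113 (61.4%) in abp1Δ cells and 122 (72.2%) in wild-type cells. Reaching both ends were 9 in abp1Δ cells and 6 in wild-type cells.

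**Figure D3:**
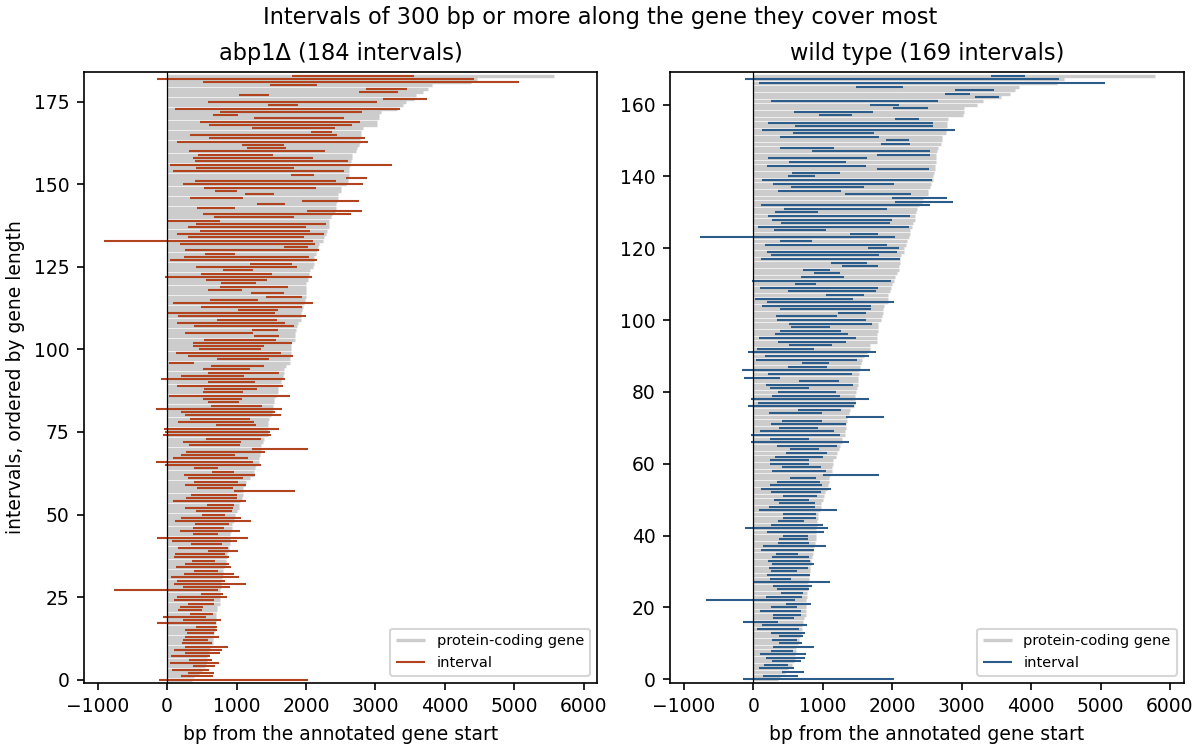
Each wide interval (coloured line) along the protein-coding gene it covers most (grey bar), in bp from the annotated start on the gene's strand, ordered by gene length, with abp1Δ on the left (184) and wild type on the right (169). Most lines start right of 0, at medians of 338 bp in abp1Δ and 286 bp in wild type, and many stop near the gene end.

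Most of the genes farthest exceeded were followed by a non-coding RNA gene or a second coding gene inside the same interval. SPAC27E2.11c, a short gene lying at the start of the interval over the long non-coding RNA prl53, was passed by 1683 bp in abp1Δ cells and 1669 bp in wild-type cells. grx4 was passed by 750 bp in abp1Δ cells and 718 bp in wild-type cells, over snu32, which encodes a U3 snoRNA of ribosomal RNA processing. The interval past ura6 reached 671 bp in abp1Δ cells and 528 bp in wild-type cells and met rrk1, the RNA of RNase P, which trims tRNA precursors. That past pdi4 reached 379 bp in abp1Δ cells and 451 bp in wild-type cells and covered snR30, the U17 snoRNA. Past not3 it reached 324 bp in abp1Δ cells and 349 bp in wild-type cells, over most of snR90. The RNA genes beside grx4, ura6, pdi4 and not3 lie on the strand opposite to the coding gene. The whole grx4 interval was 881 bp wide in abp1Δ cells, so most of it lay outside grx4. Such lengths are therefore not shown to be spread of polymerase past the end of the coding gene. pfl2 was passed by 690 bp in abp1Δ cells and 691 bp in wild-type cells, over the whole of SPAPB18E9.05c. rpl101 was passed by 350 bp in abp1Δ cells and 19 bp in wild-type cells. eft202 was passed by 613 bp in abp1Δ cells, over 330 bp of the ribosomal protein gene rpl35A01 on the opposite strand. Narrower wild-type intervals covered 189 bp of rpl35A01. In wild-type cells eft202 held 2 wide intervals, of 1428 and 769 bp, and the farther one ended at -83 bp from the gene end. At the other end, but2 was preceded by 912 bp in abp1Δ cells and 775 bp in wild-type cells, and sod1, superoxide dismutase, by 770 and 684 bp.

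The intervals that met no coding gene, 10 in abp1Δ cells and 6 in wild-type cells, all lay over annotated non-coding RNA genes. snRNA genes, which encode the RNA cores of the spliceosome, met wide intervals in 4 of 6 cases in abp1Δ cells and 2 in wild-type cells. The snu2 interval was 967 bp wide in abp1Δ cells and 975 bp in wild-type cells around a gene of 187 bp, and it ran 637 and 654 bp past the gene end. At snu5, a gene of 120 bp, the interval was 748 bp wide in abp1Δ cells and 679 bp in wild-type cells and ran 533 and 480 bp past the end. snu1 (U1, 317 bp) and snu4 (U4, 333 bp) were met in abp1Δ cells alone. Of 66 snoRNA genes, whose products guide modification or cleavage of ribosomal RNA, 11 met one in abp1Δ cells and 7 in wild-type cells, all of the 7 being shared. The share over all non-coding RNA genes was not computed, so none stands beside the snRNA and snoRNA counts. Some snoRNA genes were met through the interval of another gene, as snoU24b through that of cpc2 and snR93 through that of rpl29. The U3 gene snu3 had 1042 bp in abp1Δ cells and 888 bp in wild-type cells, running 510 and 410 bp past its end. mamRNA, a long non-coding RNA bound by the meiotic regulators Mmi1 and Mei2, lay inside intervals of 1070 bp in abp1Δ cells and 962 bp in wild-type cells. None of 171 tRNA genes, which RNA polymerase III transcribes, met a wide interval in either list.

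Wide intervals were shared far more often than intervals at large. In abp1Δ cells 182 of 194 met some wild-type interval by at least 1 bp (93.8%, 89.5 to 96.4), against 42.8% of all abp1Δ intervals. In wild-type cells 167 of 175 met some abp1Δ interval (95.4%, 91.2 to 97.7), against 55.9% of all wild-type intervals. A wider interval has more bases with which to meet another, so these shares are set beside those of intervals of at least 50 bp that fell short of 300 bp, 64.7% in abp1Δ cells and 78.8% in wild-type cells. By length, 81.4% of wide abp1Δ bases lay in wild-type intervals of any width and 71.0% in wide ones. Of wide wild-type bases, 90.6% lay in abp1Δ intervals of any width and 86.2% in wide ones. The counterpart was wide for 137 abp1Δ intervals (70.6%) and 144 wild-type intervals (82.3%), narrower alone for 45 and 23, and absent for 12 and 8.

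Where abp1Δ cells had 1 unbroken interval, wild-type cells often had several pieces, but most of the length was usually shared. Wild-type intervals covered a median of 91.3% of a wide abp1Δ interval, and abp1Δ intervals 98.9% of a wide wild-type one. The pieces counted next include very short ones beside a wide one: eft201 had 18 in wild-type cells, the widest of 1428 bp and others of 1 bp. An abp1Δ wide interval with a counterpart met a median of 4 wild-type intervals and at most 37, while a wild-type one met a median of 1 abp1Δ interval and at most 31. Wild-type wide intervals were covered over their whole length by abp1Δ intervals in 68 cases, against 25 cases the other way round. As many as 7 abp1Δ intervals met 2 or more wide wild-type intervals, and no wild-type interval did so in abp1Δ cells. The widest abp1Δ interval that met narrower wild-type intervals alone was that of plb2, a phospholipase gene. It measured 2434 bp and met 26 wild-type intervals covering 474 bp of it. SPBC409.08, a spermine transporter gene, had 2055 bp in abp1Δ cells that met 37 wild-type intervals covering 499 bp. The phosphate transporter gene pho842 had 1723 bp in abp1Δ cells with 26 wild-type intervals covering 839 bp. In wild-type cells SPBPB7E8.01 had an interval of 1743 bp of which 27 bp lay in an abp1Δ interval. mfs3, also a polyamine transporter gene, had 1056 bp in wild-type cells that met 31 abp1Δ intervals covering 688 bp. aru1, the arginase gene, had 685 bp in wild-type cells with 440 bp covered in abp1Δ cells.

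The 12 abp1Δ intervals with no wild-type counterpart had a median width of 410.5 bp. SPAC27D7.11c, a But2 family gene, had the widest at 1025 bp (score 664), with 28.4% of its 50-base words repeated. cpy1, vacuolar carboxypeptidase Y, had 432 bp and a score of 1828, the highest of the 12, and 75.5% of its words were repeated. scw1, an RNA-binding protein gene, held 2 of the 12, at 738 and 350 bp, and no wild-type interval of any width lay in that gene. isp6, a vacuolar protease gene, had 430 bp, isp7 350 bp and the ammonium transporter gene amt1 558 bp. SPBC1289.14, the adducin gene, had 738 bp. In wild-type cells 8 intervals had no abp1Δ counterpart: 4 identical ones of 568 bp and score 440 in the SPBPB10D8 array shown above, 586 and 523 bp in ecl2, 422 bp in the transcription factor gene esc1 and 392 bp in the septin organizing gene mid2. The 4 identical copies cannot be told apart by their reads.

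**Figure D4:**
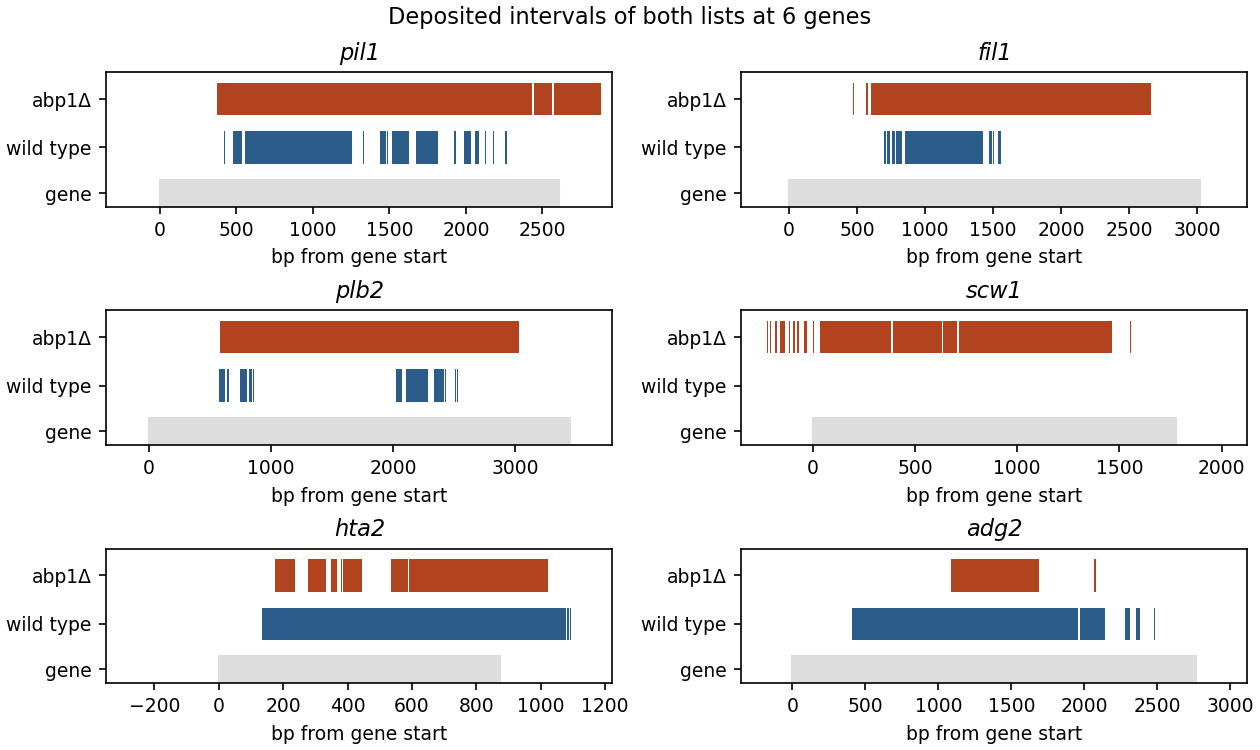
Deposited intervals along 6 genes in bp from the annotated gene start, with abp1Δ above wild type and the gene in grey. At pil1 and fil1 a long abp1Δ run stands over a shorter wide interval (695 and 481 bp) and fragments in wild type, and at plb2 over fragments alone. At scw1 abp1Δ pieces, the widest of 738 bp, stand over nothing in wild type. hta2 and adg2 have the longer run in wild type. pil1, fil1 and scw1 lie in a stretch of chromosome III described with the paired intervals.

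Wide intervals that were each other's best match formed 137 pairs. The abp1Δ interval was the wider one in 96 pairs and the wild-type one in 41. The abp1Δ width was a median 1.08 times the wild-type width, with a range of 0.477 to 4.28, and the median difference was 69 bp. The score was higher in abp1Δ cells in 84 pairs and in wild-type cells in 52, with a median ratio of 1.08; any scaling of one list against the other is not stated. Edges are those of the 2 paired intervals. Along the 131 pairs over the same coding gene, the abp1Δ interval reached farther upstream in 77 and the wild-type one in 53. Downstream these were 86 and 43, with median extensions in abp1Δ cells of 36 bp downstream and 8 bp upstream. The 2 edges lay within 50 bp of each other in 66 pairs upstream and 58 downstream.

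A width ratio of at least 1.5 was reached by 19 pairs in favour of abp1Δ and 3 in favour of wild type. fil1, a GATA-type transcription factor gene, had 2058 bp in abp1Δ cells and 481 bp in wild-type cells. pil1 had 2037 bp in abp1Δ cells and 695 bp in wild-type cells, with scores of 1084 and 395. Both fil1 and pil1 lie in the stretch of chromosome III described below. The ribosomal gene rpl13 had 779 bp in abp1Δ cells and 324 bp in wild-type cells. In 7 pairs the abp1Δ interval met a second wide wild-type interval, which the pairing leaves out. pho84, a phosphate transporter gene, had 1459 bp in abp1Δ cells against 507 and 386 bp in wild-type cells, a ratio of 2.88 to the larger and 1.63 to both summed. fhn1, another eisosome gene, had 2313 bp in abp1Δ cells against 1132 and 505 bp in wild-type cells, a ratio of 1.41 to both. At ght8 the abp1Δ interval of 1621 bp was wider than either wild-type interval, of 946 and 905 bp, and narrower than both summed (ratio 0.876). With all wide wild-type intervals summed, a choice made after seeing the data, 14 pairs in place of 19 reached 1.5, and 5 in place of 9 reached 2. In the other direction were hta2, with 433 bp in abp1Δ cells and 907 bp in wild-type cells, adg2 with 607 and 1166 bp, and rpl2501 with 337 and 510 bp.

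Median width ratios differed between chromosomes. The highest single ratio lay in 1 stretch of chromosome III, whose 6 pairs had a median ratio of 2.24. The difference between chromosomes I and II does not involve that stretch. The median ratio was 1.03 over 69 pairs on chromosome I, 1.12 over 42 on chromosome II and 1.18 over 26 on chromosome III, with score ratios of 1.01, 1.16 and 1.34. In a stretch of chromosome III from 348955 to 814349, chosen after its values were seen, all 6 pairs were wider in abp1Δ cells, by 1.95 to 4.28 times. All 6 also scored higher in abp1Δ cells, by 1.61 to 2.74 times, with a median score ratio of 2.09. What sets this stretch apart was not tested. For eft202 the ratio of 2.24 counts the larger of 2 wide wild-type intervals, and it is 1.46 with both summed. The stretch held 13 abp1Δ intervals of 14294 bp in all, against 7 wild-type intervals of 4537 bp. Of the 13, 6 met wide wild-type intervals, 4 met narrower ones alone and 3 met none. Without the stretch, the 20 other pairs of chromosome III had a median width ratio of 1.09 and a median score ratio of 1.18, so the width ratio was below that of chromosome II. Of the 6 pairs, those of eft202, rpl1201 and rpl1202 lie in genes with 84.4%, 85.1% and 60.7% of their 50-base words repeated. The paired scores of rpl1201 and rpl1202 were the same, 877 in abp1Δ cells and 395 in wild-type cells, and those of eft202 equalled those of eft201 on chromosome I, so these 3 pairs cannot be assigned to single copies. Over the whole genome, 131 pairs outside the stretch had a median width ratio of 1.07, with the abp1Δ interval the wider one in 90 and the wild-type one in 41.

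**Figure D5:**
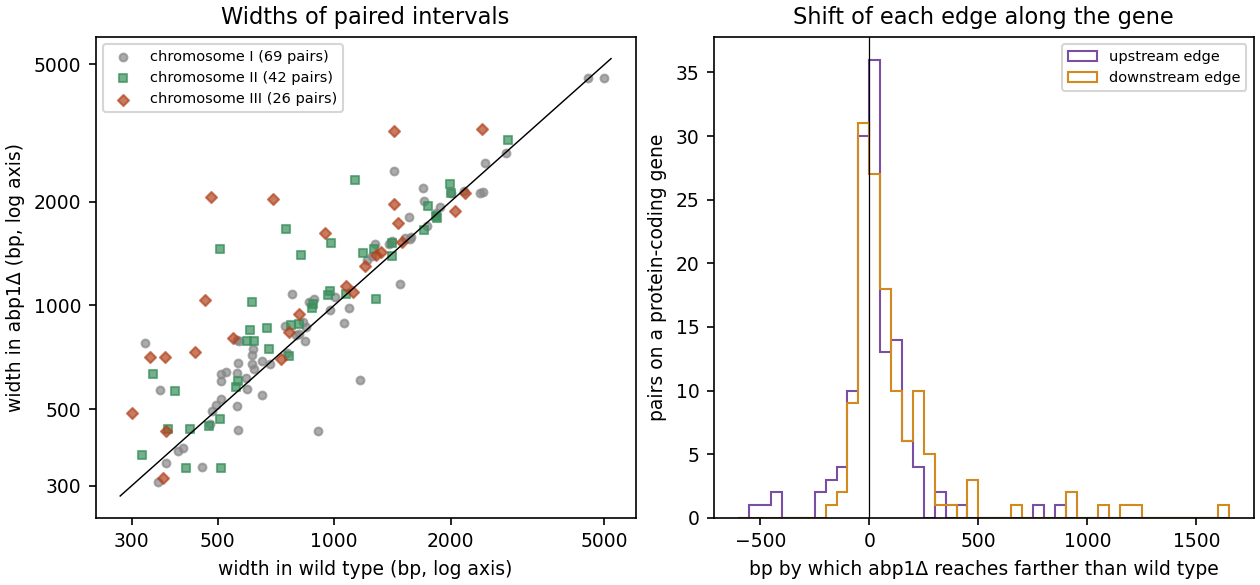
Left, width of each of 137 paired intervals in abp1Δ (vertical) against wild type (horizontal), in bp on log axes, coloured by chromosome, with the line of equal width; 96 points lie above it. Right, bp by which the abp1Δ edge reaches farther than the wild-type edge at the upstream and downstream end of 131 pairs on a coding gene, with medians of 8 and 36 bp.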

How the data were processed

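Ser5P ChIP-seq interval lists of abp1Δ and wild-type cells were analysed, 1 per genotype, with groups taken from the source names. Per the labels' protocols, chromatin fragments were 250 to 400 bp long and an RNA library kit was used. The submitters' processing notes name Bowtie 0.12.5. How peaks were called, the genome build, any scaling and the handling of multiply matching reads are not given in the sources used, and depth is unknown. Each deposited interval carries the authors' score, a whole number of at least 200 with no stated unit, used to describe and rank intervals within a list and set side by side only as deposited.

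Coordinates were read as BED (start counted from 0) and set against the RefSeq annotation of ASM294v3. In wild-type cells the mirrored intervals of eft201 and eft202, on opposite strands, matched within 1 bp, so positions are uncertain by 1 bp. As deposited, 90.4% of wide abp1Δ bases and 91.0% of wide wild-type bases lay in coding genes, against 70.8% and 69.5% or less after moving the lists by 1000 bp either way. Each interval was assigned to the coding gene it overlapped most; gene bounds are the annotated transcript bounds. Wide intervals were paired across lists where each overlapped the other most. Repeats are 50-base words that either strand of the genome holds more than 1 time. Wilson intervals (95%) cover counting error only. Python 3.11.15, pandas 2.3.3, scipy 1.17.1 and matplotlib 3.10.9 were used, and the overlap scripts were tested on simulated data. The members and gene lists were chosen with earlier results of these data known. hsp60 and tef1 matched no gene symbol.

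Genes were named by a rule: the 10 widest, the 5 highest and 5 lowest scores, the intervals meeting none or only narrow intervals of the other list, those reaching farthest past a gene end or before its start, genes wholly covered, intervals next to the width limit, and up to 6 members of each gene list. Pairs with the largest width ratios, and members of lists beyond these, were chosen after their values were seen. Alternatives changed the minimum width, the overlap required, the score range, the joining of near intervals, the gene bounds and the number of wild-type intervals counted in a pair.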

Additional observations from a re-analysis of the deposited data

How the results depend on the processing

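With 1 list per genotype and unknown depth, widths and scores describe these lists alone, and a gene without a wide interval may carry polymerase below the lowest score of 200. Of 117 values recomputed for 19 results under 11 settings, 98 stayed within the interval, or 1.5 times, of the reported value and 19 moved. None moved with the upper 50% of scores, with joining over 10 bp, without chromosome III, or with the gene of largest covered share. The last pair of settings was chosen after seeing the data. The upper 50% of scores kept all 194 abp1Δ and 175 wild-type wide intervals, so most of its values could not change. Without chromosome III 155 and 144 wide intervals remained, too small a loss for those numbers to pass the limit of 1.5 times. The share of wide intervals meeting the other list became 97.2% in abp1Δ cells at a minimum width of 500 bp, and 81.4% in abp1Δ cells and 89.1% in wild-type cells where 50% of the interval had to overlap. The share meeting a coding gene became 86.6% in abp1Δ cells and 81.1% in wild-type cells without repeated genes, 100% in both with any annotated gene, and 92.6% in wild-type cells with coding bounds. The median covered share was 52.6% in abp1Δ cells and 47.4% in wild-type cells at 200 bp, 73.3% and 67.7% at 500 bp, and 77.7% and 68.3% with coding bounds. With coding bounds 123 abp1Δ and 103 wild-type intervals passed the end and 43 and 42 reached the start, since the coding sequence is shorter than the gene. Pairs at least 2 times wider in abp1Δ cells numbered 5 in place of 9 with all wild-type wide intervals summed, a setting also chosen after seeing the data. No paired analysis was possible because each genotype has 1 list and no test was made.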
